A study of Mus musculus with 11 samples.

Results

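The genes described here are 48 markers of the cell types other than neurons that a culture of brain tissue can hold. They are listed by symbol as known markers, a list drawn up with earlier results of these data known, and each symbol matched 1 of the 48709 mouse gene IDs in the deposited count tables. The list holds 10 genes of astrocytes, 10 of the oligodendrocyte lineage, 11 of microglia, 8 of blood vessels and 9 of fibroblasts and meninges. The RNA came from primary mouse hippocampal neurons, cells taken from the hippocampus and grown for 10 days at 20% oxygen, and each library was made from polyadenylated RNA. The control group is 6 libraries from cells kept at 20% oxygen, and the hypoxia group is 5 libraries from cells held at 1% oxygen for 4 h. The protocol says that control cells shared their isolation with hypoxic cells, but not which libraries did. The labels name no genotype, transgene or drug for either group, and the sources used here do not give the strain, sex or age of the mice or any treatment against dividing glia. No label gives the isolation or dish of a library, and p-values therefore measure only the spread between these libraries, which may be technical.

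Astrocytes clear glutamate from synapses and carry water and potassium away from active neurons. Cells of the oligodendrocyte lineage run from dividing precursors, marked by Olig2, Sox10 and Cspg4, to myelin-forming cells that express Mbp, Mog, Mag and Mobp. Microglia are the resident macrophages of the brain, endothelial cells and pericytes form its vessels, and fibroblasts of the meninges lay down fibrillar collagen. Such markers are used to describe what a neuron culture holds besides neurons, although some are also expressed by other cells. In RNA from whole cultures, fewer cells of a type and less RNA per cell cannot be told apart.

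The libraries held 16619493 to 31917157 counts, and the lowest total was that of control 1. Hypoxia 5 stood apart in fibroblast and meningeal genes, and calls of members that it decides are given with and without it. Expression is in CPM, the count of a gene per 1000000 counts of its library after TMM scaling, printed as mean ± SD over 6 control and 5 hypoxia libraries. Of the 48 members, 32 had a mean of at least 1 CPM in control and 16 were below it. Neuronal reference genes in the same control libraries stood at 2481 ± 102 CPM for Map2, a microtubule protein of dendrites, at 1124 ± 154 CPM for the neuronal tubulin Tubb3, at 799 ± 42.7 CPM for the synaptic protein Snap25 and at 103 ± 17 CPM for the splicing factor Rbfox3. Markers of the labelled cell type were thus abundant. Over 10 pan-neuronal genes the summed level was 10099 to 10902 CPM in control and 10477 to 11153 CPM in hypoxia.

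**Figure D1:**
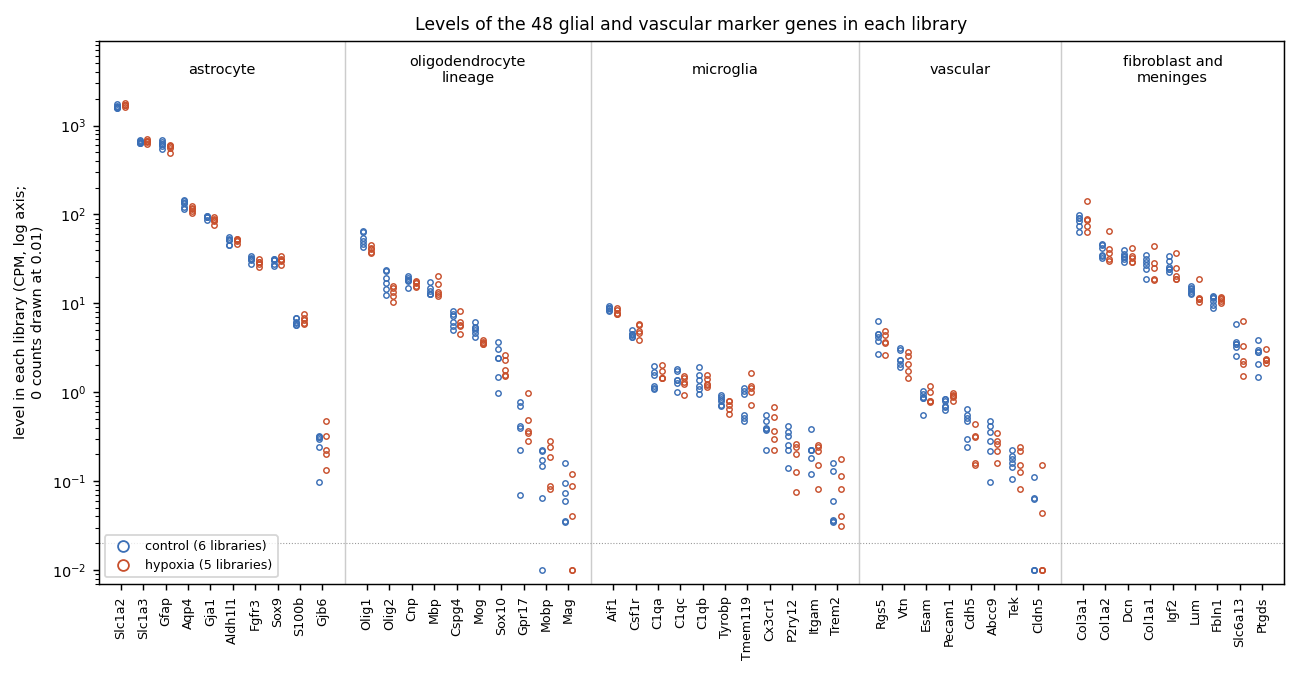
Level of each of the 48 marker genes (CPM, log axis) in each of the 6 control libraries (blue) and 5 hypoxia libraries (orange), by cell type and ordered by the control mean. Libraries with 0 counts are drawn at 0.01 below the dotted line. In control, Slc1a2 averages 1635 CPM and Rgs5 4.33 CPM, and of the 39 members tested only Mog shows groups that do not overlap.

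Astrocyte markers were abundant. In control, the glutamate transporter Slc1a2 (GLT-1) ranged from 1586 to 1741 CPM with a median of 1603 CPM, and Slc1a3 (GLAST), the other astrocytic glutamate transporter, averaged 652 ± 18.4 CPM. Gfap, the intermediate filament of astrocytes, ranged from 546 to 691 CPM with a median of 624 CPM. The water channel Aqp4 averaged 132 ± 12.4 CPM, the gap junction protein Gja1 (connexin 43) 93.3 ± 3.21 CPM and the folate enzyme Aldh1l1 50.5 ± 4.24 CPM. The growth factor receptor Fgfr3 and the transcription factor Sox9 averaged 31.4 ± 2.28 and 29.7 ± 2.05 CPM, and the calcium-binding protein S100b 6.24 ± 0.532 CPM. Gjb6 (connexin 30), the second astrocytic connexin, was near 0, with 3 to 15 counts in a library. Of the 10 astrocyte members, 9 thus had a mean of over 1 CPM, and Gjb6 did not.

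Per length of gene model, the leading astrocyte genes stood within the range of the 4 neuronal references and below the highest of them. Levels were divided by the exon length of each gene, which gives CPM per kb, the scale used here to compare genes. Gfap was at 148 ± 11.9, Slc1a2 at 124 ± 4.73 and Slc1a3 at 76.3 ± 2.16 CPM per kb in control. On the same scale Tubb3 was at 601 ± 82.4, Map2 at 151 ± 6.18, Snap25 at 118 ± 6.29 and Rbfox3 at 17.7 ± 2.91 CPM per kb. The median over the 10 astrocyte members was 10.1 CPM per kb, and that over 10 pan-neuronal genes was 109 CPM per kb. The medians were 4.22 CPM per kb for fibroblast and meningeal members, 1.21 for the oligodendrocyte lineage, 0.737 for microglia and 0.114 for vessels. These values depend on which genes stand in each list and are not shares of cells. Other genes of the same cell types, taken up below, gave a median of 48.4 CPM per kb for astrocytes. Such medians were 1.03 for fibroblasts and meninges, 0.276 for the oligodendrocyte lineage and 0.610 for microglia. For endothelial and mural genes they were 0.0444 and 0.495 CPM per kb.

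**Figure D2:**
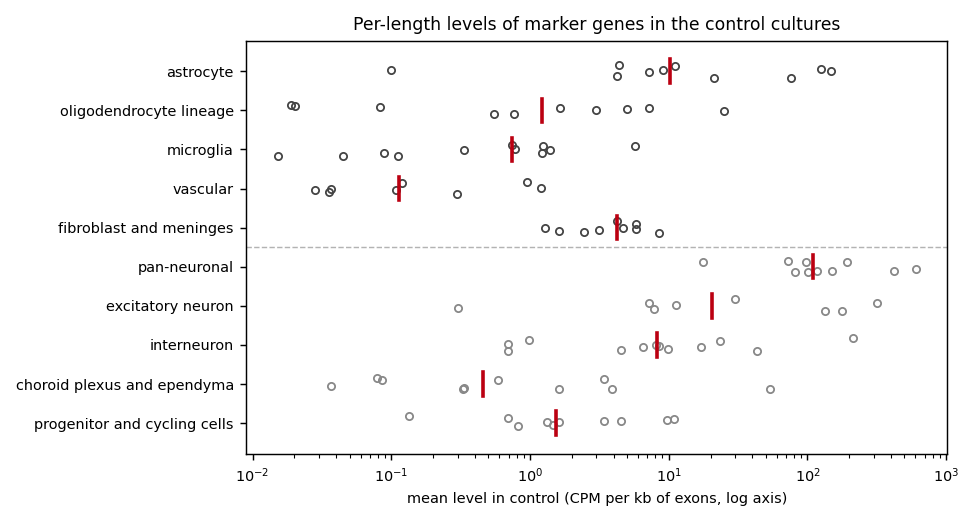
Mean level of each marker gene over the 6 control libraries per kb of exons (log axis), 1 circle per gene, with the median of each list as a red bar. The 5 lists above the dashed line are the 48 members and the lists below it are neuronal, choroid plexus and progenitor genes. The astrocyte median is 10.1 and the vascular median 0.114 CPM per kb. Sideways scatter has no meaning.

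Oligodendrocyte lineage members spanned a wide range in control. The transcription factor Olig1 averaged 54.0 ± 9.21 CPM, its neighbour Olig2 18.2 ± 4.55 CPM and the myelin enzyme Cnp 18.1 ± 1.74 CPM. Dnajc7, at 184 CPM, covers 4.23% of the exon bases of Cnp on the opposite strand, where reads may have been added or lost. Per kb the order was Olig1 (25), Olig2 (7.20), Cnp (4.98), Mog (3.0), Mbp (1.65), Sox10 (0.768) and Cspg4 (0.553 CPM per kb), and Mog, Mbp and Sox10 differed by more than their SDs. The myelin protein gene Mbp averaged 14.0 ± 1.86 CPM, the proteoglycan Cspg4 (NG2), which mural cells also express, 6.60 ± 1.27 CPM and the myelin surface protein Mog 5.12 ± 0.660 CPM. Sox10, the factor that defines the lineage, averaged 2.34 ± 0.992 CPM. Of the myelin genes, Mag and Mobp were near 0, with 0 to 5 and 0 to 9 counts in a library. Mbp, Cnp and Mog, at the levels above, were not near 0. The receptor Gpr17, of the committed precursor stage, was low, with 2 to 24 counts in a library. Mog at 3.0 ± 0.387 CPM per kb therefore stood far above Mag (0.0188) and Mobp (0.0201), although all 3 are genes of mature oligodendrocytes. Whether its counts come from such cells was not tested.

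Microglial markers were low. The 11 members summed to 17.9 to 21.2 CPM in control, and Aif1 (IBA1) alone made up 43.8% of that sum at 8.77 ± 0.370 CPM. The receptor Csf1r averaged 4.48 ± 0.304 CPM and the complement genes C1qa, C1qb and C1qc 1.44 ± 0.370, 1.34 ± 0.361 and 1.42 ± 0.290 CPM. Tyrobp, a signalling adaptor, averaged 0.814 ± 0.0931, Tmem119 0.773 ± 0.290 and the chemokine receptor Cx3cr1 0.401 ± 0.11 CPM. P2ry12, Itgam and Trem2 had 2 to 11, 2 to 11 and 1 to 5 counts in a library. Per kb, Aif1 stood at 5.73 ± 0.242, the complement genes at 0.737 to 1.38 and Cx3cr1 at 0.0891 CPM per kb, so Aif1 was far above the other members. Hmgxb3, at 46.2 CPM, covers 15.1% of the exon bases of Csf1r on the opposite strand. Itgam shares 68.7% of its exon bases with another gene model on its strand. Reads there may have been added or lost, depending on counting settings that are not given, so both levels are uncertain.

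Vessel markers had the lowest median of the 5 lists, 0.114 CPM per kb. The 8 members summed to 6.98 to 10.9 CPM in control, with 46.3% of the sum from the pericyte gene Rgs5 at 4.33 ± 1.21 CPM. The matrix protein Vtn, which pericytes and other cells secrete, averaged 2.45 ± 0.488 CPM. The endothelial adhesion genes Esam, Pecam1 (CD31) and Cdh5 (VE-cadherin) averaged 0.855 ± 0.163, 0.748 ± 0.0900 and 0.456 ± 0.155 CPM. The tight junction gene Cldn5 had 0 counts in controls 1, 5 and 6 and in hypoxia 3, 4 and 5, and at most 4 counts elsewhere. A count of 0 allows up to 3 counts, which is 0.0948 to 0.179 CPM in these libraries, for counting error only. Tek (TIE2) had 2 to 6 counts and the channel subunit Abcc9 3 to 13 counts in a library.

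Fibroblast and meningeal markers were all measured. The fibrillar collagen genes Col3a1, Col1a2 and Col1a1 averaged 83.9 ± 13.2, 39.3 ± 6.09 and 27.7 ± 5.83 CPM in control. The proteoglycan Dcn averaged 33.9 ± 3.63 CPM and the growth factor Igf2 26.7 ± 4.25 CPM. Lum, a proteoglycan of collagen matrix, averaged 14.1 ± 1.09 CPM and the matrix protein Fbln1 10.7 ± 1.25 CPM. The transporter Slc6a13 and the prostaglandin synthase Ptgds, which mark the leptomeninges, were at 3.71 ± 1.12 and 2.68 ± 0.813 CPM. Per kb, Col3a1 was highest at 8.55 ± 1.34, and Dcn (5.81 ± 0.622) and Lum (5.77 ± 0.443) came next and lay within their SDs of each other. Igf2 shares 62.8% of its exon bases with another gene model on its strand that is not used here, so its level is uncertain as well.

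Libraries of the control group differed in their marker levels and over all genes. The chi-square per degree of freedom between 2 libraries measures difference beyond counting error and grows with depth. It was 23.5 to 26.6 for control 2 and 8.56 to 14.0 for control 1 against controls 3 to 6. Among controls 3 to 6 it was 2.34 to 5.07. For hypoxia 5 against the other hypoxia libraries it was 8.38 to 10.0. The cause of these differences was not tested. Over the 6 controls the summed level had a coefficient of variation of 3.55% for astrocyte members, 6.37% for microglia, 10.4% for the oligodendrocyte lineage, 12.2% for fibroblasts and meninges and 14.4% for vessels. These spreads were not tested against each other, and the lists with fewer counts carry more counting error. Sox10 ran from 0.978 CPM in control 6 to 3.69 CPM in control 2, with a coefficient of variation of 42.4%. Olig2 was lowest and second highest in the same libraries, at 12.4 and 23.0 CPM, and Cspg4 was lowest and highest there, at 4.99 and 8.22 CPM. Olig1 did not follow them, with 54.7 CPM in control 6 and 46.4 CPM in control 2. It was at 42.9 CPM in control 1 and at 50.8 to 65.5 CPM in controls 3 to 6. The ratio of Olig1 to Olig2 counts therefore ran from 2.01 in control 2 to 4.42 in control 6, and in hypoxia from 2.72 to 3.90.

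Hypoxia against control asks whether these markers changed over 4 h. Of the 48 members, 39 passed the filter on low counts and were tested, and 9 were not: Gjb6, Mag, Mobp, Itgam, Trem2, P2ry12, Cldn5, Tek and Abcc9. At a Benjamini-Hochberg adjusted p under 0.05 in edgeR's quasi-likelihood test, 4 of the 39 were lower in hypoxia and 0 were higher. Over all 16235 genes tested, 22.9% were called, 10.1% as higher and 12.8% as lower, so the members' share of 10.3% was below the background. The other lists named below hold 136 genes tested, of which 16.2% were called. Counts of called genes in each list stand beside these shares over all genes. At an unadjusted p under 0.05, 1 member was higher and 8 were lower, and DESeq2 called 0 higher and 3 lower. The 4 that fell were Mog, Olig1, Olig2 and Aqp4. The median log2 fold change of the 39 was -0.12, against -0.02 over all genes tested.

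**Figure D3:**
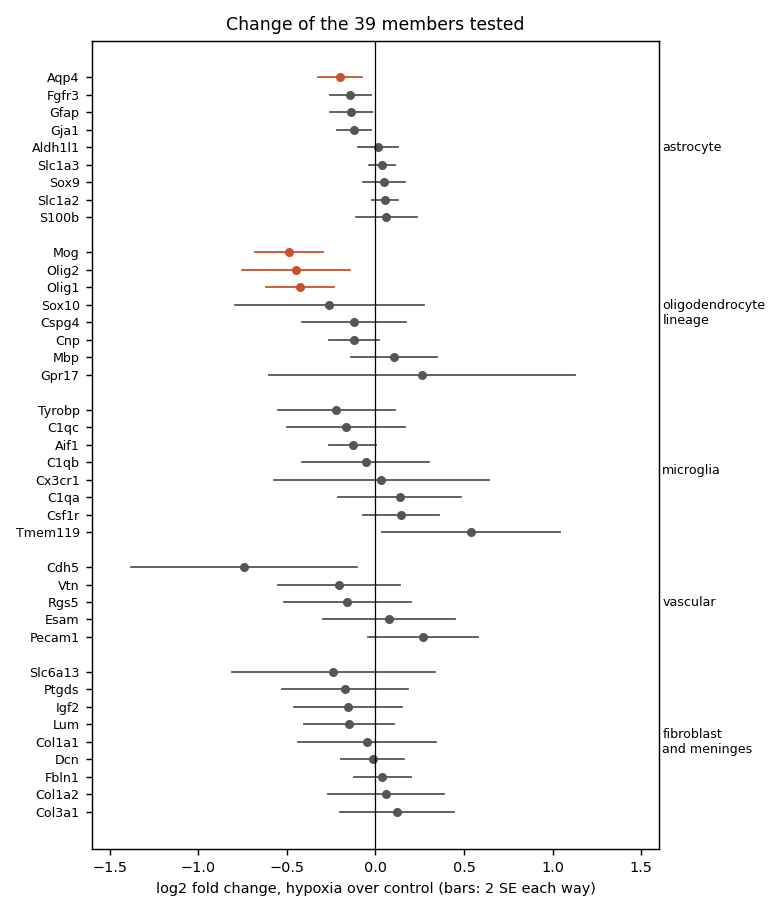
Log2 fold change of the 39 members tested, hypoxia over control, with bars of 2 standard errors each way. Orange marks the 4 genes with an adjusted p under 0.05 (Aqp4, Mog, Olig2 and Olig1), all lower in hypoxia. The widest bars belong to genes with few counts, such as Gpr17 and Cdh5.

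In the oligodendrocyte lineage, 3 of 8 members tested fell and none rose, and their median log2 fold change was -0.19. With 8 genes, this share of 37.5% against 12.8% of all genes called as lower is given as a description. Promoter sequence is shown for Olig2 and Mog, the 2 members that fell for which an entry was found. In all, 32 of the 48 members had an entry among the RefSeq promoters used here, on build GRCm38.p6. Each line gives 250 bases before the start, 5′ to 3′ on the gene's strand, and capitals mark the letters ACGTG or GCGTG on either strand, the core that hypoxia-inducible factors bind.
Olig2, plus strand, chr16:91225300-91225549: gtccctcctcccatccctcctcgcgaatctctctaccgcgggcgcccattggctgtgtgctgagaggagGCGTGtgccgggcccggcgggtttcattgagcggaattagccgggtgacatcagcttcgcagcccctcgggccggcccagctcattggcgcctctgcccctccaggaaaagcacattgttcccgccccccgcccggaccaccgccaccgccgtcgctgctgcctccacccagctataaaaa
Mog, minus strand, chr17:37023399-37023648: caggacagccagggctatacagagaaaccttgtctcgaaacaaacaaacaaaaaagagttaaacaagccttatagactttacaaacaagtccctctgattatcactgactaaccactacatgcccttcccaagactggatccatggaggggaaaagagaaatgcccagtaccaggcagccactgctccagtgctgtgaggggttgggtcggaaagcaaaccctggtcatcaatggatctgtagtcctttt
The Olig2 window held 1 such match, starting 181 bases before the RefSeq start, and the Mog window held 0. The gene model used for levels starts Olig2 further upstream, at chr16:91225457, so the end of that window lies inside this model. Of all 32851 windows in the table, 38.6% held either core, as did 13 of the 41 windows of members, some of which have several start sites. A match is a string of letters and no measured site.

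Mog, a myelin surface protein of mature oligodendrocytes, had the smallest p-value of the members. It stood at 4.22 to 6.10 CPM in control, with a median of 5.18 CPM. In hypoxia 1 to 5 it stood at 3.86, 3.58, 3.46, 3.68 and 3.51 CPM. Every hypoxia library was below every control library, and no other member tested had groups that did not overlap. Of all genes tested, 14.0% had groups that did not overlap, counted in either direction. The log2 fold change was -0.49 with an SE of 0.10 (adjusted p = 0.00173), from a mean of 5.12 ± 0.660 to 3.62 ± 0.158 CPM. The gene lies at chr17:37010743-37023398 on build mm10.

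Olig1, a basic helix-loop-helix factor of oligodendrocyte precursors, stood at 42.9 to 65.5 CPM in control with a median of 52.7 CPM. In hypoxia 1 to 5 it stood at 40.6, 41.8, 44.9, 38.1 and 36.6 CPM. The ranges overlapped through a single control: control 1 lay below hypoxia 3, whereas the other 5 controls lay above all hypoxia libraries. The log2 fold change was -0.43 with an SE of 0.10 (adjusted p = 0.00427), a 1.34-fold lower level in hypoxia. The call held for Olig1 and for Mog in all 17 alternatives, which are other tools, scalings and filters, a block for the replicate number and each library left out in turn, with adjusted p-values of up to 0.0218 and 0.00870. Olig1 is a single-exon gene at chr16:91269772-91271933.

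Olig2, which specifies the lineage together with Olig1, stood at 12.4 to 23.5 CPM in control with a median of 18 CPM. In hypoxia 1 to 5 it stood at 10.4, 14.8, 15.8, 12.1 and 13.5 CPM. The groups overlapped, since controls 3 and 6 lay within the hypoxia range. The log2 fold change was -0.45 with an SE of 0.15 (adjusted p = 0.0440). The call was lost in 10 of 17 alternatives: with DESeq2 (adjusted p = 0.0875), with its size factors (0.0505), and without any 1 of controls 1, 2, 4 and 5 or hypoxia 1, 2, 4 and 5 (0.0542 to 0.113, the highest without hypoxia 1). Sox10 and Cspg4, the related precursor genes, were not called (log2 fold change -0.26, SE 0.27, and -0.12, SE 0.15).

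The other lineage members tested gave Mbp a log2 fold change of 0.11 (SE 0.12), Cnp -0.12 (SE 0.07) and Gpr17 0.26 (SE 0.43), none of them called. Mbp was highest in hypoxia 5 at 20.2 CPM, against 12.1 to 16.4 CPM in hypoxia 1 to 4. The summed level of the 10 lineage members was 106 to 137 CPM in control and 87.9 to 107 CPM in hypoxia. Without Olig1, its most abundant member, the mean sum was 65.0 CPM in control and 57.4 CPM in hypoxia. Among 19 other genes of the lineage, 14 were tested, 1 was lower and none higher. That gene was Cldn11, a tight junction protein of myelin, which fell from 1.94 ± 0.350 to 1.10 ± 0.386 CPM (log2 fold change -0.79, SE 0.20, adjusted p = 0.00824). The precursor receptor Pdgfra was not called, with a log2 fold change of -0.29 (SE 0.21).

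Of 10 genes of progenitor and dividing cells tested, 4 fell, none rose and 6 were not called, against 12.8% of all genes called as lower, and DESeq2 called 3 as lower. Hes5, a target of Notch signalling, fell from 1.80 ± 0.192 to 1.01 ± 0.259 CPM (log2 fold change -0.82, adjusted p = 0.00211), and the stem cell factor Sox2 from 22.4 ± 1.64 to 17 ± 2.64 CPM (log2 fold change -0.39, adjusted p = 0.00388). Pax6, a progenitor factor, and Birc5, a gene of dividing cells, were the other 2 (log2 fold changes -0.40 and -0.32, adjusted p = 0.00562 and 0.0481), and Birc5 was called in 5 of 17 alternatives. The summed level of the list overlapped between the groups, at 168 to 207 CPM in control and 164 to 193 CPM in hypoxia. Each of the 10 had at least 7 counts in every library. Their part in the change of the oligodendrocyte markers was not tested.

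**Figure D4:**
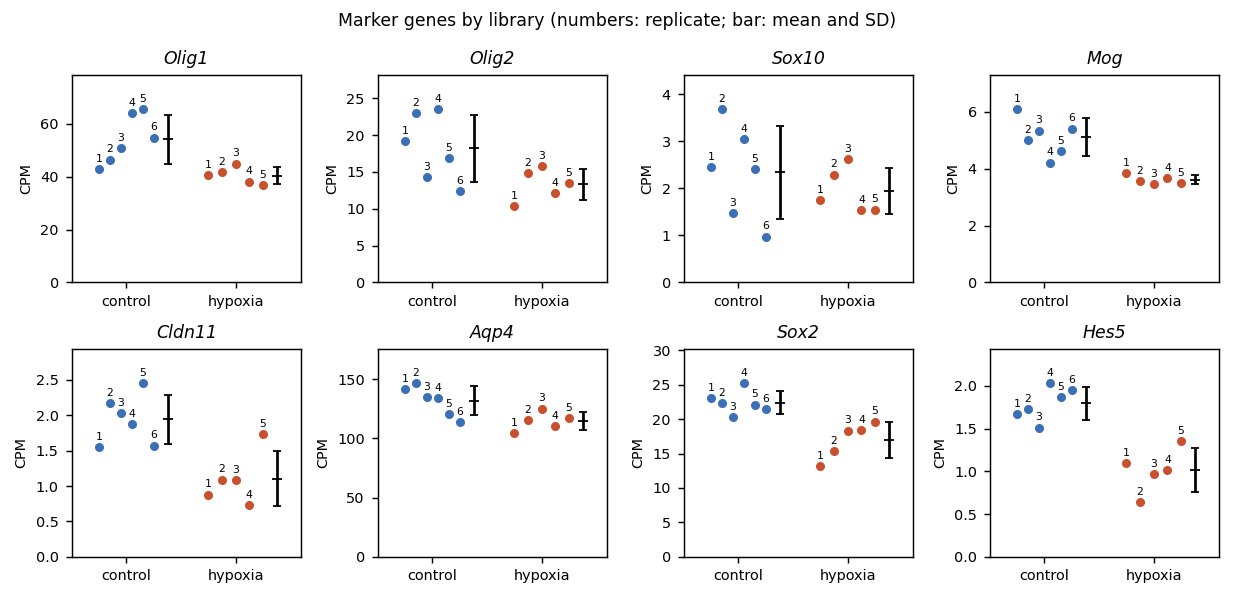
CPM of 8 marker genes in each library, with the replicate number at each point and the mean and SD beside it. For Mog, Sox2 and Hes5 all hypoxia points lie below all control points, whereas Olig1, Olig2, Cldn11, Aqp4 and Sox10 overlap between the groups.

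In astrocytes, 1 of 9 members tested fell and none rose, and their median log2 fold change was 0.01. That share of 11.1% is near the 12.8% of all genes called as lower. Aqp4, the water channel of astrocyte endfeet, stood at 114 to 146 CPM in control with a median of 134 CPM. In hypoxia 1 to 5 it stood at 104, 116, 125, 110 and 117 CPM. Control 6 and control 5 lay within the hypoxia range and the other controls above it. The log2 fold change was -0.20 with an SE of 0.06 (adjusted p = 0.0269), a 1.15-fold lower level. The call was lost in 7 of 17 alternatives, without any 1 of controls 1 to 4 or hypoxia 1, 2 and 4 (adjusted p = 0.0539 to 0.0774, the highest without hypoxia 1).

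Gfap, Fgfr3 and Gja1 were not called. Their log2 fold changes were -0.14, -0.14 and -0.12, at an adjusted p of 0.10, 0.0949 and 0.0760. They were called in 2, 1 and 2 of 17 alternatives, with edgeR adjusted p-values of up to 0.255, 0.236 and 0.181. With 1 library left out, Gfap was called without control 6 (adjusted p = 0.0321), Gja1 without control 6 or hypoxia 5 (0.0414 and 0.0219) and Fgfr3 without control 1 (0.0330). The glutamate transporters Slc1a2 and Slc1a3 gave log2 fold changes of 0.05 and 0.04, and neither was called (adjusted p = 0.307 and 0.533). Aldh1l1, Sox9 and S100b had log2 fold changes of 0.01, 0.05 and 0.06. The summed level of the 10 members was 3104 to 3387 CPM in control and 3100 to 3391 CPM in hypoxia, so the groups overlapped almost fully.

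Among 18 other astrocyte genes, 2 were higher and 1 lower, a share of 16.7% against 22.9% of all genes. The intermediate filament Vim rose from 227 ± 10.8 to 251 ± 12.1 CPM (log2 fold change 0.14, adjusted p = 0.0215) and the secreted protein Sparcl1 from 782 ± 35.2 to 850 ± 36.6 CPM (log2 fold change 0.12, adjusted p = 0.0343). The lipid-binding protein Fabp7, named here after its value was seen, was the lower one (log2 fold change -0.20, adjusted p = 0.0457). Their calls were lost in 2, 5 and 11 of 17 alternatives. Of 15 genes of reactive astrocytes, 13 were tested, 2 were lower and none higher. Steap4, a metalloreductase, fell from 2.41 ± 0.300 to 1.59 ± 0.428 CPM and the pentraxin Ptx3 from 13.1 ± 1.21 to 10.5 ± 1.21 CPM (adjusted p = 0.0148 and 0.0126).

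Of 8 microglial members tested, none was called in edgeR or DESeq2, and Tmem119 alone had an unadjusted p under 0.05. Log2 fold changes ran from -0.22 for Tyrobp to 0.54 for Tmem119, with a median of -0.01. Tmem119, a microglial surface protein, stood at 0.478 to 1.11 CPM in control with a median of 0.745 CPM, and at 1.18, 1.13, 0.725, 1.01 and 1.64 CPM in hypoxia 1 to 5. Its unadjusted p was 0.0471 and its adjusted p 0.138, whereas the authors' deposited table lists Tmem119 as higher, with a log2 fold change of 0.67 and an adjusted p of 0.0499. Tmem119 was highest in hypoxia 5, and without that library its log2 fold change was 0.35 (edgeR adjusted p = 0.356). With 8 to 52 counts in a library, its counting error is large. Aif1 had a log2 fold change of -0.13 (SE 0.07) and Csf1r of 0.14 (SE 0.11). Of 18 other microglia and macrophage genes, 13 were tested and 1 was lower, Sall1, a transcription factor of microglia that neural progenitors also express (9.95 ± 0.842 and 8.23 ± 1.15 CPM, adjusted p = 0.0376). That call was lost in 9 of 17 alternatives.

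Of 5 vascular members tested, none was called in edgeR or DESeq2, and Cdh5 alone had an unadjusted p under 0.05. Cdh5 had the largest difference, from 0.456 ± 0.155 to 0.278 ± 0.121 CPM, with 5 to 18 counts in a control library and 4 to 10 in a hypoxia library. Its log2 fold change was -0.74 with an SE of 0.32 (adjusted p = 0.107, and 0.0492 without control 6). Pecam1 had a log2 fold change of 0.27 (SE 0.16), Esam of 0.08, Rgs5 of -0.16 and Vtn of -0.21. Among 10 other mural cell genes, 7 were tested, 2 were higher and none lower. Pdgfrb, the receptor that keeps pericytes on vessels and that fibroblasts also carry, rose from 14.5 ± 1.35 to 21.4 ± 3.39 CPM with no overlap between the groups (log2 fold change 0.56, SE 0.09, adjusted p = 0.000394). The adhesion protein Mcam rose from 2.88 ± 0.531 to 3.77 ± 0.421 CPM (adjusted p = 0.0343), a call lost in 8 of 17 alternatives. Of these 10 genes, 6 had a mean of at least 1 CPM in control, with Pdgfrb making up 40.9% of their sum, whereas Kcnj8, Higd1b and Des had 0 to 3 counts in a library. Of 14 other endothelial genes, 6 were tested and 1 was lower, the tight junction gene Ocln (8.96 ± 0.717 and 6.90 ± 0.567 CPM, adjusted p = 0.00210). Kdr, the VEGF receptor of endothelial cells, made up 61.7% of the summed level of that list in control, at 23.7 ± 3.21 CPM or 2.63 ± 0.356 CPM per kb, above every vascular member per kb. It was at 20.5 ± 2.62 CPM in hypoxia and was not called (log2 fold change -0.21, SE 0.09, adjusted p = 0.11). At the other end of the list, Sox17 had 0 counts in every library, and the median of the list in control was 0.0444 CPM per kb. Which cells the Kdr counts come from was not tested.

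Of 9 fibroblast and meningeal members, all were tested and none was called in edgeR or DESeq2 or had an unadjusted p under 0.05. Hypoxia 5 was the highest library for most of them, although the search for outlying libraries given below flagged it for Lum alone. Col3a1 stood at 63.9 to 99.8 CPM in control with a median of 87.5 CPM. In hypoxia 1 to 5 it stood at 89.8, 86.1, 74.2, 62.9 and 143 CPM, so that hypoxia 5 was above every other library. Col1a1 was at 44.0 CPM in hypoxia 5 against 18.2 to 28.6 CPM in the other hypoxia libraries, Igf2 at 36.4 against 18.7 to 25.2 CPM and Slc6a13 at 6.25 against 1.54 to 3.28 CPM. In all, 7 of the 9 members were highest in hypoxia 5 among all 11 libraries, and 6 of the 9 were lowest in hypoxia 4. Fbln1 and Ptgds were the exceptions, with hypoxia 5 at 1.06 and 0.975 times the median of the other hypoxia libraries. On that measure, members above 1 CPM had ratios of 0.882 to 1.11 in the astrocyte list, 0.764 to 1.53 in the oligodendrocyte lineage (Mbp highest), 0.720 to 0.951 in microglia and 0.659 to 1.48 in vessels (Vtn highest), against a median of 1.78 and a range of 0.975 to 2.90 in the fibroblast and meningeal list.

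The summed level of the 9 members was 202 to 282 CPM in control, 187 to 241 CPM in hypoxia 1 to 4 and 369 CPM in hypoxia 5. Its mean was 243 ± 29.6 CPM in control and 245 ± 72.2 CPM in hypoxia, and their ratio of 1.01 became 0.883 without hypoxia 5. Without that library, Lum, Igf2 and Slc6a13 were called as lower, at log2 fold changes of -0.35, -0.36 and -0.70 (edgeR adjusted p = 0.00203, 0.0263 and 0.0308). With it the 3 values were -0.15, -0.15 and -0.24 (adjusted p = 0.447, 0.519 and 0.603). Leaving out control 2 in place of hypoxia 5 gave -0.12, -0.08 and -0.07, none of them called. Leaving out both libraries was not tested. Col1a2 and Col3a1 changed sign, from 0.06 and 0.12 with hypoxia 5 to -0.18 and -0.10 without it.

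**Figure D5:**
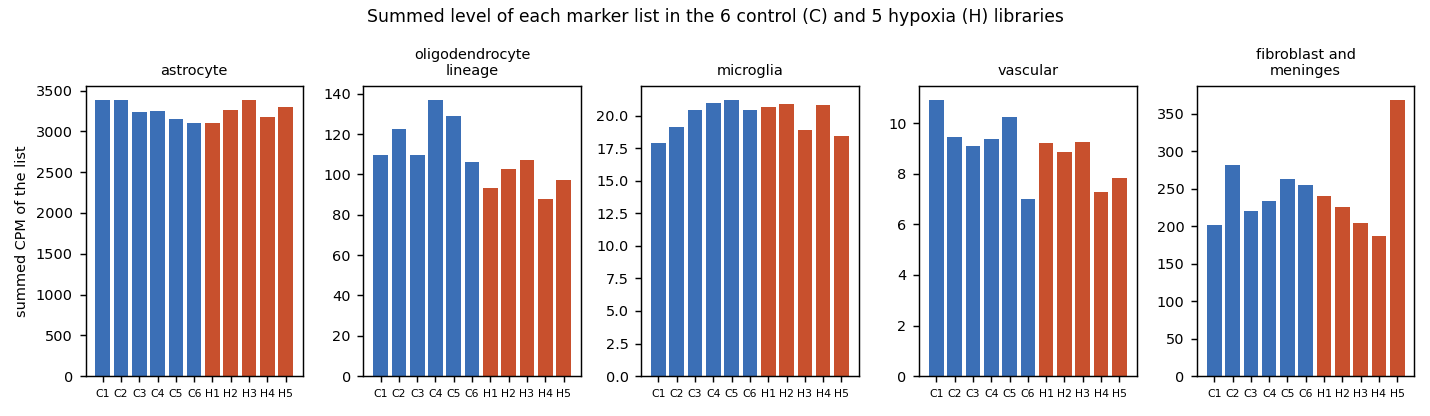
Summed CPM of each of the 5 marker lists in controls 1 to 6 (C, blue) and hypoxia 1 to 5 (H, orange). Each panel has its own axis from 0. The fibroblast and meningeal sum is 369 CPM in H5 and at most 282 CPM elsewhere, and the oligodendrocyte lineage sum is 106 CPM or more in every control and up to 107 CPM in hypoxia.

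Among 18 other fibroblast and meningeal genes, 16 were tested, 3 were higher and none lower, whereas without hypoxia 5 the 3 genes Col6a1, Col6a2 and Foxc1 were called as lower. Lox, which crosslinks collagen, rose from 4.25 ± 0.90 to 6.81 ± 1.49 CPM (log2 fold change 0.68, SE 0.15, adjusted p = 0.00357), and fibronectin (Fn1) from 57.8 ± 7.89 to 75.6 ± 12.7 CPM (log2 fold change 0.39, SE 0.10, adjusted p = 0.0111). The third was the transporter Slc6a20a, named after its value was seen (log2 fold change 0.94, adjusted p = 0.0364), whose call was lost in 6 of 17 alternatives. Both named matrix genes were also highest in hypoxia 5, at 9.32 and 95.5 CPM, and both calls held without it and in all 17 alternatives. The summed level of these 18 genes was 175 to 236 CPM in control, 189 to 225 CPM in hypoxia 1 to 4 and 305 CPM in hypoxia 5. Of 10 choroid plexus and ependymal genes, 9 were tested and 1 was lower, the ciliary factor Foxj1 (10.2 ± 1.32 and 8.22 ± 0.658 CPM, adjusted p = 0.0155).

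Neuronal lists gave the levels beside which these changes stand. Of 10 pan-neuronal genes none was called in edgeR, with 3 at an unadjusted p under 0.05, whereas DESeq2 called 2 as higher. Of 8 excitatory neuron genes 2 were higher, against 10.1% of all genes. They were Tbr1 (39.4 ± 1.31 and 44.7 ± 2.59 CPM, adjusted p = 0.00639) and Neurod6 (685 ± 19.4 and 751 ± 41.9 CPM, adjusted p = 0.0188). Of 12 interneuron genes, Dlx1 was lower (24.6 ± 1.96 and 20.2 ± 1.42 CPM, adjusted p = 0.00447) and Lhx6 was higher (40.6 ± 2.59 and 44.7 ± 1.03 CPM, adjusted p = 0.0368), the latter in 9 of 17 alternatives. The authors' deposited table lists Mog, Olig1 and Aqp4 as lower, with log2 fold changes of -0.50, -0.38 and -0.19, and does not list Olig2.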

How the data were processed

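The deposited values used for every test are raw counts, a whole number for each Ensembl gene in each library. The submitters' processing notes name DESeq2, featureCounts, Subread 1.5.1, STAR 2.5.2b and FastQC 0.11.5, and build mm10. The sources used here do not give the gene annotation, strand setting or handling of multi-mapped reads. Per the labels' protocols, libraries were made with the TruSeq RNA v2 kit and read as single ends of 50 bp. That kit does not mark strand. The authors' 2 deposited tables give log2 fold changes, adjusted p-values and a normalized signal, each count over 1 size factor per library, of which the signal was not used.

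Of the IDs, 48349 matched a symbol in GENCODE M21, which also gave exon lengths and coordinates on the same build and may not be the authors' annotation. Differences were tested in R 4.3.3 with edgeR 4.0.16 (filterByExpr by group, TMM, 2-sided quasi-likelihood F test) on all 11 libraries with no covariate, adjusted by Benjamini-Hochberg over all 16235 genes. SE is the size of the log2 fold change over the square root of F. The code of the test was run on simulated counts with the same dispersion for every gene, which does not model the differences between these libraries. Alternatives were DESeq2 1.42.0, other scalings and filters, a replicate block and leaving out each library. The depth of 16619493 to 31917157 counts leaves genes under about 1 CPM with few counts. The members and lists were chosen with earlier results of these data known. All 48 members are named. From each other list the 2 called genes with the smallest p-values are named, or the most abundant gene where none was called, with Rbfox3, Map2, Snap25 and Tubb3 as references. Pdgfra, Pax6, Birc5, Fabp7, Slc6a20a, Kcnj8, Higd1b, Des, Kdr, Sox17, Col6a1, Col6a2 and Foxc1 were added after their values were seen.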

Additional observations from a re-analysis of the deposited data

Results flagged for a closer look

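In 132 groups of libraries searched (the members tested, the other named genes and the list sums, each in control and in hypoxia), 6 had a library far from the rest, where chance alone gives about 1 in 20. Lum was at 18.8 CPM in hypoxia 5, with the other hypoxia libraries at 10.5 to 11.4 CPM. Slc6a13 was at 5.86 CPM in control 2, with the other controls at 2.57 to 3.67 CPM. Gja1 was low in control 6, at 87.0 CPM against 93.2 to 95.6 CPM, and Esam was low in control 2, at 0.553 CPM against 0.856 to 1.03 CPM. Ptgds was at 3.05 CPM in hypoxia 2, with the others at 2.14 to 2.39 CPM, and Mcam at 4.51 CPM in hypoxia 3, with the others at 3.47 to 3.64 CPM.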

How the results depend on the processing

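Each of 17 alternatives gave 0 members higher, and 2 to 7 members lower when 1 library was left out. The 7 came without control 6 or hypoxia 5, and 2 came without control 2 or 4 or hypoxia 1, 2 or 4. Mog and Olig1 were called in every one of them. The other lists gave 6 to 11 higher and 9 to 19 lower genes when 1 library was left out, with 6 without hypoxia 4 and 19 without hypoxia 5. Without the most abundant gene of each list, the mean sum in control and hypoxia was 1618 and 1551 CPM for astrocytes, 65.0 and 57.4 for the oligodendrocyte lineage, 11.3 and 11.9 for microglia, 5.02 and 4.66 for vessels, and 159 and 154 for fibroblasts and meninges.

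Signs turned in 21 fits, all of members that were not called there, and the cause was not tested. Aldh1l1 gave -0.0135 with the replicate block. On leaving out 1 library the log2 fold change ran from -0.0153 to 0.0464 for Aldh1l1, -0.0282 to 0.179 for Mbp, -0.126 to 0.493 for Gpr17, -0.217 to 0.224 for Cx3cr1, -0.139 to 0.0867 for C1qb, -0.0289 to 0.146 for Esam, -0.307 to 0.0652 for Col1a1, -0.176 to 0.156 for Col1a2, -0.101 to 0.228 for Col3a1 and -0.109 to 0.0351 for Dcn. The replicate numbers were not taken to pair the libraries. Deviations of same-numbered libraries correlated at -0.18, 0.17, -0.07, -0.09 and 0.32. The control most alike had the same number for hypoxia 2 and 5 and another number for hypoxia 1, 3 and 4. Whether some numbers mark shared isolations was not tested. With the number as a block (numbers 1 to 5, without control 6), 5 members were lower, Gfap among them (adjusted p = 0.0354). Genes with few counts, such as Cdh5, Gpr17 and the 9 members not tested, are limited by depth.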

Other observations

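The genes outside all lists whose log2 CPM over the 6 controls was most like each summed marker level were Kctd12b for astrocytes (Pearson r = 0.997), Xkr8 for the oligodendrocyte lineage (0.992), Usf1 for microglia (0.999), Nsun4 for vessels (0.992) and Proca1 for fibroblasts and meninges (0.986). With n = 6 libraries such values are common: of 13800 genes compared, 274, 39, 1103, 119 and 100 reached at least 0.9 for these lists in that order. The 5 genes most like the oligodendrocyte lineage sum were, after Xkr8, Gm2136, Lpar1, Cldn10 and Prr33 (r = 0.982, 0.964, 0.963 and 0.960). The libraries share their depth and scaling with both values, so these are descriptions only.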
